A study of Mus musculus with 4 samples.

Results

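The liver RNA of 4 mice that lost more weight under intranasal galanin-like peptide (GALP) was set against the liver RNA of 8 saline-treated mice on 2 dual-colour arrays. The members are these 2 of the 4 arrays of the series, taken by their titles, which name the greater weight loss group. On 1 array the GALP pool carried Cy5 and the control pool Cy3, and on the other the dyes were exchanged. All mice were male C57BL/6J with diet-induced obesity, had eaten a high-fat diet for 14 weeks and weighed at least 40 g. Porcine GALP (1 nmol, in saline with α-cyclodextrin) or saline was given through the nose in a volume of 2 µL, daily for 11 days. The animals were bought at 8 weeks of age. The GALP mice were divided by the weight they lost, so the 4 mice were selected by an outcome of the treatment and not assigned to it. RNA was pooled before labelling, so each side is 1 sample, the 2 arrays are the same extracts measured again, and no test of the treatment is possible. Sizes are therefore given with the agreement of the 2 dye orientations. In the labels the control channel carries the name of the weight loss group too, whereas the methods describe a single control pool.

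GALP is a hypothalamic peptide related to galanin, and its arcuate neurons are known to respond to leptin. Given into the brain it lowers food intake and body weight in mice, and in rats after a brief rise in food intake. The liver makes and exports lipids, breaks down drugs and hormones, and holds resident macrophages, called Kupffer cells, stellate cells that store retinoids and can lay down matrix, and bile duct cells beside the hepatocytes. A whole-liver extract mixes them all, so that a ratio shows the RNA of a gene per total RNA. Fewer cells of a type and less RNA per cell cannot be told apart.

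Of 41174 probes, 17551 (42.6%) were described, which means that they were well above background in at least 1 channel on both arrays, carried no outlier mark and were no control spots. They carried 11600 of the 21091 gene names on the array. Between 40.5% and 46.7% of the spots of a channel were well above background and 0 were saturated. All ratios are log2 of GALP over control, where 1 is a doubling, and paired values are given in the order GALP in Cy5, then GALP in Cy3. A gene is represented by its brightest described probe. It is called higher or lower when both arrays passed 1.5-fold (0.585 on the log2 scale) in that direction. A probe not well above background on one side has only a limit, written as at least N-fold. The limit rests on the processed signals and is no bound under another background correction. The median ratio of the described probes was 0.02 and -0.06 on the 2 arrays. The hepatocyte identity of both extracts was checked with 20 described hepatocyte markers. None of the 20 was called, their median was 0.10, and they ranged from -0.19 to 0.42. Apoa1, an apolipoprotein of high-density lipoprotein, had 0.16 and 0.06. Hnf4a, a transcription factor of hepatocyte identity, had 0.31 and 0.14. The summed processed signal of these markers was 707298 and 499627 in the GALP pool and 678183 and 482904 in the control pool.

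By this rule 187 probes were higher (1.07% of those described) and 199 lower (1.13%), together 2.2%. Counted by gene, 131 were higher (1.13% of genes described) and 128 lower (1.1%), together 2.23%. A limit in place of a fold applied to 15 of the higher and 20 of the lower genes. The lower side reached much further. By the ratio alone, 43 probes were lower and 1 was higher at 8-fold on both arrays. Some of these ratios, that of the higher probe (Pcdh20) among them, have a dim side, where only a limit below 8-fold holds. At 2-fold the numbers were 86 and 40. The median ratio of the called genes was 0.89 for the higher and -1.10 for the lower ones.

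**Figure D1:**
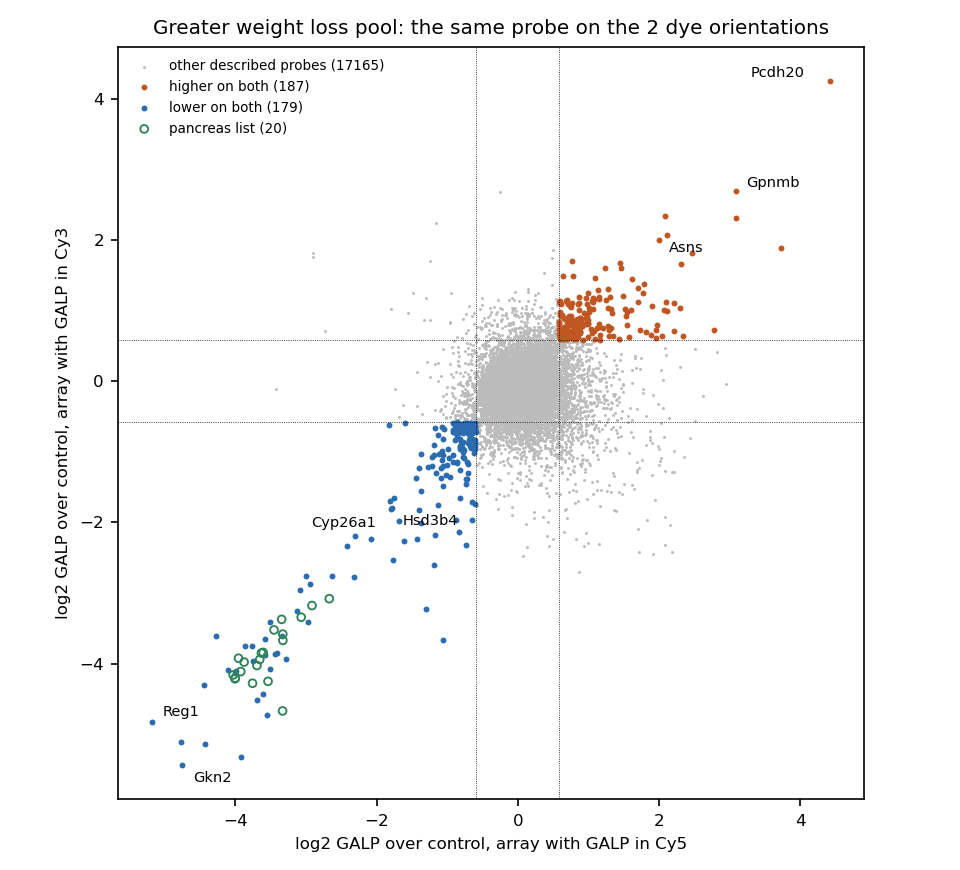
Log2 ratio of GALP over control of each described probe, with the array that carried GALP in Cy5 on the horizontal axis and the array that carried GALP in Cy3 on the vertical axis. Dotted lines mark 1.5-fold, orange points are the 187 probes higher on both arrays, blue points and green circles together are the 199 lower ones, and green circles are probes of the pancreas list, which lie in the lower left corner of the plot, far below 0 on both axes.

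The 2 dye orientations agreed well for bright probes and poorly for dim ones. The Pearson correlation of the 2 arrays across probes, which share extracts and are not independent, was 0.32 over all described probes. Of all described probes, 54.3% had the same sign on both arrays. Split by mean signal into 4 classes of equal size, the correlation was 0.18 in the dimmest class, then 0.44 and 0.68, and 0.81 in the brightest. Pancreatic genes with very low ratios, such as Cpb1 and Cela3b, lie in the brightest class, and their weight in its correlation was not tested. The median SD of the 2 arrays was 0.37 in the dimmest class and 0.09 in the brightest. In the dimmest class, with a mean signal up to 103, 191 probes passed 1.5-fold in the same direction and 263 in opposite directions. In the brightest, 61 passed in the same direction and 1 in opposite directions. Of the 276 opposite probes, 250 were higher with GALP in Cy5. Calls of dim probes rest on the weakest agreement, and they make up 61 of the 131 higher and 47 of the 128 lower genes. Of the higher genes, 27 have another described probe, and in 23 of these every other probe had the same sign on both arrays. Of the lower genes, 28 have another one and this held in 21.

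Many of the lowest ratios belonged to digestive enzymes of the exocrine pancreas. All 16 described members of the pancreas list were lower, from -4.11 to -2.88, with a median of -3.80 beside -0.01 over all genes. Cela3b, a pancreatic elastase, had -4.03 and -4.16. Its processed signal was 2081 and 1538 in the GALP pool and 33998 and 27521 in the control pool, and both dye orientations gave about the same fold. Pnliprp1, related to pancreatic lipase, had -4.00 and -4.21, with a signal of 433 and 315 against 6938 and 5820. The mean fold was 17.1 for Cela3b and 17.2 for Pnliprp1. Cpb1, a carboxypeptidase, had -4.00 and -4.22. Prss3, a trypsin, had -3.92 and -4.11, and Pnlip, the pancreatic lipase, had -3.54 and -4.25. Amy2a5, the pancreatic amylase, had -3.69 and -4.03. The smallest shift in the list was that of the chymotrypsinogen Ctrb1, with -2.67 and -3.08. Ins2, which encodes insulin and marks islet cells, was not well above background in the GALP pool and was at least 5.81-fold lower. Its second probe was at least 5.72-fold lower.

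The probes behind 2 of these values and that of a stomach gene described next are shown because the finding rests on what they bind. They read in the sense of the transcript, in lower case throughout, and each maps to more than 60 bases of mm9, across at least 1 intron.
Cela3b, chr4:136976994-136977861, minus strand: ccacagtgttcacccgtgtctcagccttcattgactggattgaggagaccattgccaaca
Pnliprp1, chr19:58815028-58815621, plus strand: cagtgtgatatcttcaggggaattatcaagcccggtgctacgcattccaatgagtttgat
Tff2, chr17:31279256-31280080, minus strand: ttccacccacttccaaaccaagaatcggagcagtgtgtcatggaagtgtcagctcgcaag
The Cela3b probe spans 868 bases of the genome, the Pnliprp1 probe 594 and the Tff2 probe 825. A probe that crosses an intron in this way fits spliced RNA over its whole length.

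Further acinar genes, listed after their values were seen, went the same way. Of 16 such genes 16 were lower, a direction that their choice fixed, with a median of -3.67 and a range from -5.00 to -1.94. Reg1, a secreted acinar protein, had the lowest ratio of all genes measured on both sides, -5.17 and -4.83. Its signal was 171 and 173 in the GALP pool and 6163 and 4915 in the control pool. Sycn, a protein of zymogen granules, had -3.86 and -3.75, and the trypsin gene Try5 had -3.58 and -3.88. Bhlha15, a transcription factor of acinar cells, was at least 2.72-fold lower. Pdia2, a disulfide isomerase of the pancreas, was at least 11.6-fold lower. Neighbouring genes were low together, as with Pnlip, Pnliprp1 and Pnliprp2 (chr19:58755296-58848619, mm9) and 4 trypsin genes (chr6:40981550-41473996). Trypsins, amylases, kallikreins, defensins, lysozymes, Hsd3b genes and major urinary proteins form families with near-identical members, so a probe of one may take up RNA of another and the values of single members are uncertain.

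Markers of the stomach and intestine were low as well, though not uniformly. Of 6 described stomach markers 4 were lower, and the list median was -3.41. Gkn2, a gastrokine of the stomach surface, was at least 11.0-fold lower. Gkn3 had -3.13 and -3.25, Tff1 had -3.41 and -3.85 with its GALP side well above background on 1 array, and Tff2 had -3.51 and -4.08. The last 2 are trefoil factors of gastric mucus cells. The other 2 markers, Muc5ac with 2.02 and -1.13 and Atp4a with 0.32 and -0.33, changed sign between the dye orientations. Of 13 intestine and Paneth cell markers, 7 were lower and 2 higher. Zg16, a lectin of goblet cells and zymogen granules, had -3.77 and -3.76, and Prap1 had -3.51 and -3.41. The defensin gene Defa1 was at least 4.41-fold lower and Defa20 at least 4.32-fold. For Defa3, the brighter probe had -0.08 and -0.11, while the dimmer one was at least 8.11-fold lower. The 2 higher members were Tff3, a trefoil factor of goblet cells, with 1.24 and 1.60, and the lysozyme gene Lyz1 with 0.65 and 0.60.

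By the definition of a call, the control pool held the higher signal in each of these digestive genes that was lower. The pools were single samples. Over the 16 pancreas markers the summed processed signal was 285802 and 239448 in the control pool and 23535 and 16864 in the GALP pool. For the 6 stomach markers it was 3861 and 3500 against 436 and 288. For the 13 intestine and Paneth cell markers it was 46029 and 34772 against 30054 and 24154. None of the pancreas markers was at 0 in the GALP pool, where 15 of 16 stayed well above background on at least 1 array. The part of these tissues' RNA in the other results was not tested. Of the 128 lower genes, 27 belong to the pancreas, stomach and intestine lists and 16 are the further acinar genes. The remaining 85 had a median ratio of -0.82. By the ratio alone, 35 genes were past 8-fold lower on both arrays. In several of them, such as Defa1, Defa6, Clca1 and Ins2, the GALP side was dim and only a limit below 8-fold holds. Of the 35, 14 belong to the pancreas list, 10 to the stomach or intestine lists and 9 to the further genes, whose place here was fixed by their choice. The other two were Agr2, a disulfide isomerase of mucus-secreting cells (at least 4.17-fold lower), and 2310057J18Rik (at least 3.03-fold lower). Without the probes of the 3 lists 185 probes were higher and 167 lower, and without the further genes too these were 185 and 149.

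The same genes are set beside the less weight loss pool, which per the methods was compared with the same control extract. There the median of the pancreas list was 0.82 and 14 of 16 members were higher. Cela3b had a mean of 0.96 in that pool, Pnliprp1 0.91 and Ins2 2.18. Gkn2 and Tff1 were not well above background in its GALP pool and were at least 6.58-fold and 9.23-fold lower, while Tff2 had 0.68 and Gkn3 0.70. Skeletal muscle markers showed the reverse order. With greater weight loss 1 of 14 was higher (Myh4, a myosin heavy chain, with 0.85 and 0.78) and the median was 0.18. With less weight loss 11 of 14 were lower and the median was -2.17. Over the 14 markers the summed signal with greater weight loss was 11476 and 9678 in the GALP pool and 9925 and 7901 in the control pool. No test of the difference between the pools is possible with 1 sample of each.

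**Figure D2:**
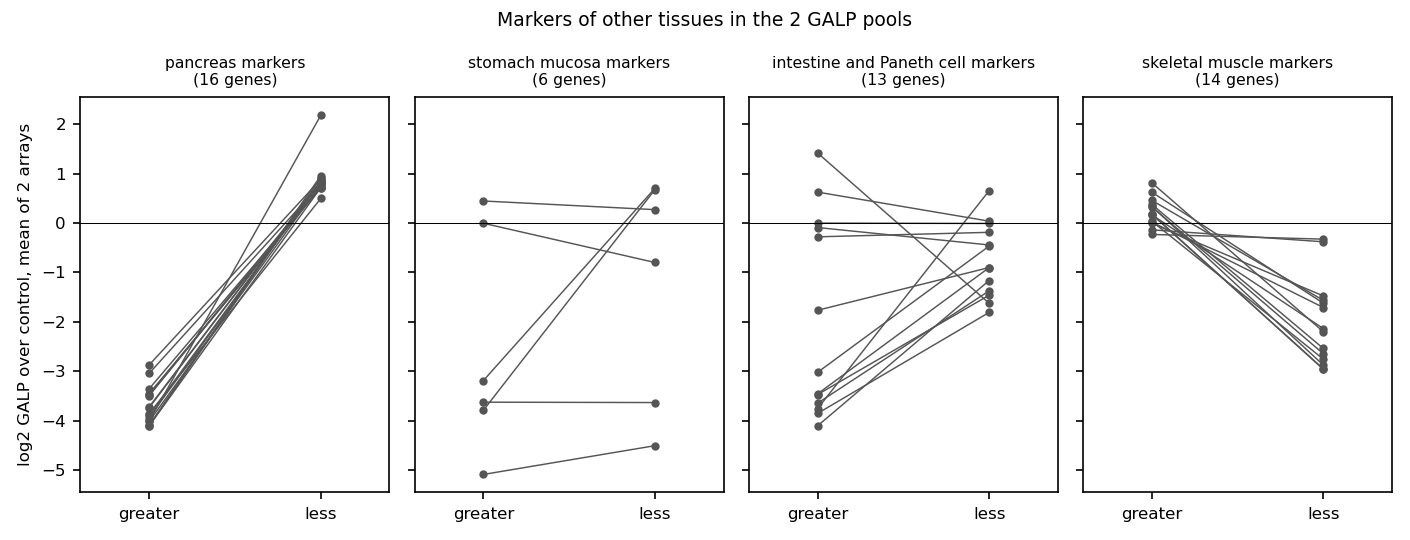
Mean log2 ratio of GALP over control of the 2 arrays of a pool, on the vertical axis, for each marker of 4 tissues other than liver. Each line joins 1 gene in the greater and in the less weight loss pool, both compared with the same control extract per the methods. The 16 pancreas markers lie between -4.11 and -2.88 on the left of their panel and between 0.49 and 2.18 on the right.

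**Figure D3:**
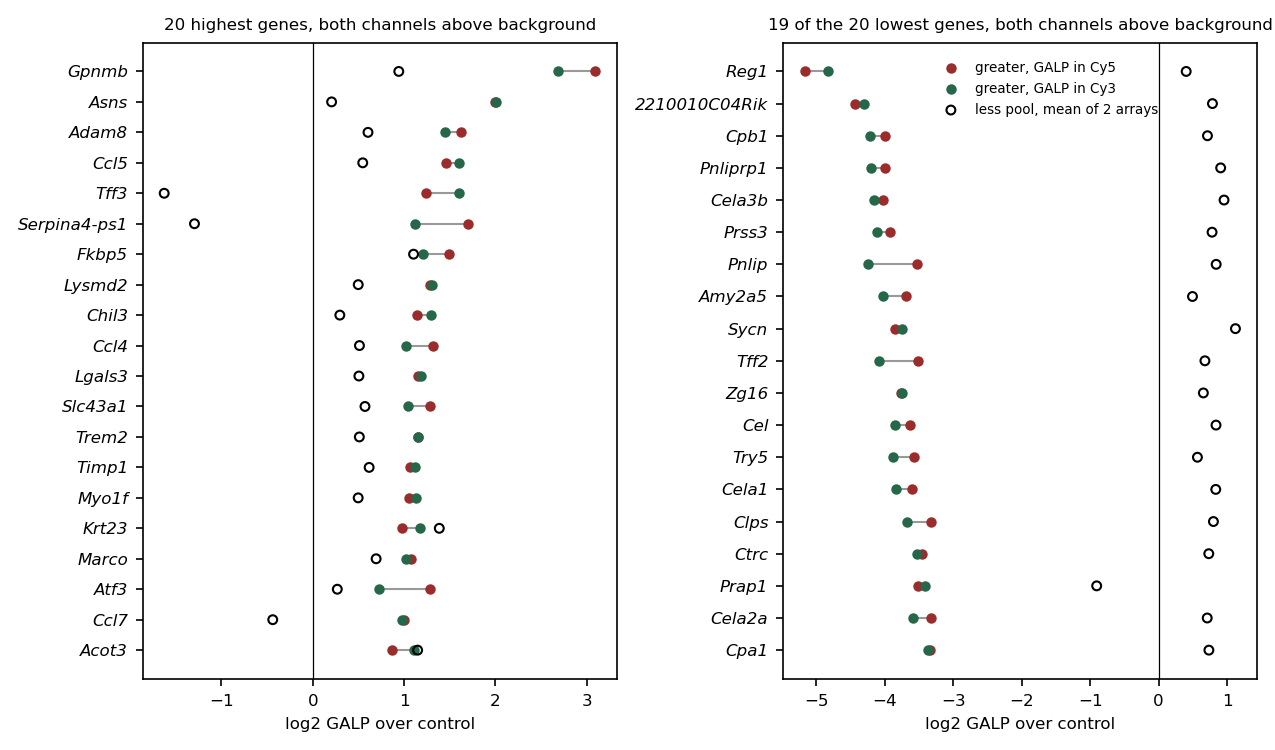
Log2 ratio of GALP over control of the 20 highest and 19 of the 20 lowest called genes that were well above background in both channels on both arrays. Red and green points are the 2 dye orientations of the greater weight loss pool and open circles the mean of the less weight loss pool; Gpnmb leads on the left with 3.09 and 2.69, and Reg1 on the right with -5.17 and -4.83.

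Among the genes higher with GALP, macrophage genes had some of the largest ratios. Gpnmb, a glycoprotein of lipid-laden macrophages, had 3.09 and 2.69, a mean fold of 7.41. Its signal was 661 and 649 in the GALP pool and 77.5 and 101 in the control pool. Trem2, a lipid-sensing receptor of the same cells, had 1.15 and 1.16 at one probe and 1.33 and 0.97 at another. Marco, a scavenger receptor of Kupffer cells, had 1.07 and 1.02, with a signal of 4763 and 4007 against 2267 and 1975. Cd68, a lysosomal protein of macrophages, had 0.62 and 0.72, and the lysozyme gene Lyz2 had 0.80 and 0.65. These were 5 of the 19 described Kupffer cell and macrophage markers, beside 1.13% of all genes higher. None of the 19 was lower and the median was 0.21. Clec4f, Timd4 and Vsig4, which mark resident Kupffer cells, were not called. Clec4f had 0.01 and -0.24, Timd4 had -0.22 and -0.31, and Vsig4 had -0.19 and -0.30. Adgre1, which encodes F4/80, had 0.55 and 0.29. The complement gene C1qa had 0.10 and 0.13. The summed signal of the 19 markers was 79257 and 65049 in the GALP pool and 62167 and 54343 in the control pool. Its part in the other results was not tested.

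Adam8, Lgals3 and Chil3 were among the 20 highest called genes. Adam8, a membrane protease of leukocytes, had 1.62 and 1.45. Lgals3, the macrophage lectin galectin-3, had 1.15 and 1.19, with a signal of 2794 and 1598 against 1259 and 701. Chil3, a chitinase-like protein of alternatively activated macrophages, had 1.14 and 1.29. The Lgals3 probe is shown as that of a bright higher gene, and it crosses an intron too (817 bases of mm9).
Lgals3, chr14:48004398-48005214, plus strand: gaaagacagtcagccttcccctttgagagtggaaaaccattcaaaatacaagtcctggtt
Of 12 described Ccl chemokine genes 4 were higher, and they are ligands that draw monocytes and T cells. Ccl5 had 1.46 and 1.60 and its second probe 1.45 and 1.67. Ccl4 had 1.32 and 1.03. The neighbours Ccl2, with 0.80 and 0.62, and Ccl7, with 1.00 and 0.98, lie within 10.1 kb on chromosome 11. Cxcl10, a chemokine that draws T cells, had 0.80 and 0.61, and was 1 of 8 described Cxcl genes called. Of 5 described Toll-like receptor genes 3 were higher, Tlr1, Tlr2 and Tlr7, with means from 0.69 to 0.72, a group picked after its values were seen. With normexp and loess none of the 3 stayed past the fold (0.16 for Tlr1, 0.23 for Tlr2 and 0.20 for Tlr7), nor did Ccl2 with 0.51, Ccl7 with 0.27 and Cxcl10 with 0.49. Il1b, the inflammatory cytokine, went the other way with -0.61 and -0.92, and had -0.19 with normexp and loess.

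Lymphocyte markers were split. Gzmb, a protease of cytotoxic cells, had 0.68 and 1.13, and Nkg7, a granule protein of the same cells, had 0.84 and 0.78. The B cell marker Ms4a1, with -0.85 and -0.59, and Jchain, which joins secreted antibodies, with -0.73 and -1.38, were lower. The remaining 7 of the 11 described markers were not called, and Cd3d, with a control side well above background on 1 array, had 1.32 on one array and -0.06 on the other. Matrix genes leaned upward. Of 21 stellate cell and fibrosis genes 2 were higher, 0 were lower and 18 had a ratio above 0 on both arrays, with a median of 0.26. Over all 11600 genes 1.13% were higher and 3137 were above 0 on both arrays. Timp1, an inhibitor of matrix proteases, had 1.07 and 1.12, and Col1a1, a chain of type I collagen, had 0.73 and 0.92. Col3a1 had 0.49 and 0.65, and Acta2, the actin of activated stellate cells, had 0.23 and 0.28. Interferon-stimulated genes had 0 of 24 called, 19 above 0 on both arrays and a median of 0.25. MHC class II genes had 0 of 8 called and a median of 0.30. With 2.23% of all genes called, a count of 0 separates neither list from the rest.

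Asns was the highest gene of metabolism. It encodes asparagine synthetase, which makes asparagine from aspartate and is a target of the amino acid response. Its only described probe had 2.00 and 2.00, a mean fold of 4.00, with a signal of 1016 and 1133 in the GALP pool and 254 and 282 in the control pool. In the less weight loss pool its mean was 0.21. Psat1, an enzyme of serine synthesis, had 1.00 and 0.86, and Mthfd1l, a mitochondrial enzyme of folate metabolism, had 0.70 and 1.15. The neighbouring steps were not called. Phgdh, the first enzyme of serine synthesis, had 0.14 and 0.17, and Psph, the last, had 0.16 and -0.38. Atf3, another target of ATF4, was higher with 1.29 and 0.73. Atf4 itself, with -0.32 and -0.13, and its targets Ddit3, with -0.19 and -0.13, Trib3, with -0.04 and 0.34, and Chac1, with 0.10 and 0.21, were not called. Of the 23 endoplasmic reticulum stress genes Asns was the only one called, and the list median was -0.03. Slc43a1, a carrier of branched-chain amino acids, had 1.28 and 1.04.

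The promoter of Asns is printed because the gene was called without the rest of its list. It is the RefSeq window of 250 bases before the start (GRCm38.p6, minus strand). A match to TGATGNAAN, the composite element of C/EBP and ATF factors, is in capitals.
Asns, chr6:7693210-7693459: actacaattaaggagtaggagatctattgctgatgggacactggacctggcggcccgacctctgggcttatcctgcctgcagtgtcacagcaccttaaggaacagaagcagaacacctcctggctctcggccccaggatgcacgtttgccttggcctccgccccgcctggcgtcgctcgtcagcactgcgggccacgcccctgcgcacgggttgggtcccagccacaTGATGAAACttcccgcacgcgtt
This motif was added after the values were seen. On both strands, in windows from 250 bases before to 50 after the start, it occurred in 3.95% of 32851 windows. It occurred in 6 of 91 higher genes (6.59%) and 8 of 93 lower genes (8.60%) with a window, beside 2.87% of 9249 genes described. A match is a description of the letters and no site of binding.

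Genes known to respond to glucocorticoids were partly higher. Of 22 described members 5 were higher and 1 lower, with a median of 0.26. Over all genes 1.13% were higher and 1.1% lower. Fkbp5, a co-chaperone of the glucocorticoid receptor, had 1.49 and 1.21, and its other probes had 1.72 and 0.73 and 0.53 and 0.67. Map3k6, a stress kinase, had 0.85 and 1.09. Sult1e1, the estrogen sulfotransferase, had 0.67 and 0.88. The metallothionein genes Mt1 and Mt2, which bind zinc and copper and lie within 6.7 kb on chromosome 8, had 0.88 and 0.86, and 0.99 and 0.82. The signal of Mt2 was 41522 and 32791 against 20841 and 18579. The second probe of Mt1 had 0.57 and 0.44. Dusp1, a phosphatase of MAP kinases, was lower with -0.63 and -0.60. Tsc22d3, with -0.17 and -0.23, Per1, with 0.20 and 0.40, and Tat, with -0.14 and -0.24, were not called. In the less weight loss pool the means were 2.08 for Mt2, 1.69 for Mt1, 1.47 for Sult1e1 and 1.29 for Map3k6.

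The windows before the start of Mt2 and Mt1 (GRCm38.p6, plus strand) are shown with the core of the metal response element, TGCNCNC on either strand, in capitals. It stood 5 times before Mt2 and once before Mt1.
Mt2, chr8:94172368-94172617: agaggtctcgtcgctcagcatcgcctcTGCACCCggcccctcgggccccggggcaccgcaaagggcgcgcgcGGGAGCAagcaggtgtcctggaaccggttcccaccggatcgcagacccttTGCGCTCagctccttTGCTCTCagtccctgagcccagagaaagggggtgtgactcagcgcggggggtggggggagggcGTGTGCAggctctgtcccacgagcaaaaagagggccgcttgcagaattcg
Mt1, chr8:94178839-94179088: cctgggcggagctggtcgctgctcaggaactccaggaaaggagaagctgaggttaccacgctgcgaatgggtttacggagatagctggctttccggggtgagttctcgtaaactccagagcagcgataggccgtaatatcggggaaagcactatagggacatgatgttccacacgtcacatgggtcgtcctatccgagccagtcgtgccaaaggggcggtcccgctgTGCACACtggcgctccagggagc
So short a motif is common. It occurred in 51.0% of all windows. Counted by gene with a window, it occurred in 63.1% of the genes described, 51.6% of the higher and 53.8% of the lower genes.

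Several enzymes and hormones of hepatocytes were higher. Cyp7a1, the rate-limiting enzyme of bile acid synthesis, had 0.76 and 0.92, with a signal of 5192 and 5424 against 3071 and 2875, and its second probe had 0.41 and 0.87. It was the only one called of 18 bile acid genes. Por, which passes electrons to the cytochromes P450, had 0.88 and 0.89, and was the only one called of 24 xenobiotic genes. Gsta1, a glutathione transferase, had 0.70 and 0.84. Acot3 and Acot1, thioesterases that split acyl-CoA, had 0.86 and 1.11, and 0.66 and 0.61, as the only 2 of 22 PPARα targets that were called. The secreted factors Nrg4, a ligand of ErbB4, and Enho, which encodes adropin, had 0.89 and 0.89, and 0.78 and 0.78. Krt23, a keratin counted with the bile duct markers, had 0.97 and 1.18. Selenbp2, a male-biased selenium-binding protein, had 0.97 and 0.90. With less weight loss Por had a mean of 0.88, Nrg4 1.13, Krt23 1.39 and Acot3 1.15, while Enho had -0.53, Selenbp2 -0.07 and Cyp7a1 0.26. Immediate early genes, which respond to stimuli within minutes, went both ways. Of 18 described, Egr1 with 0.69 and 0.60, Egr2 with 0.90 and 0.88, and Atf3 with 1.29 and 0.73 were higher. Fos, with -0.66 and -0.94, Nr4a1, with -0.82 and -0.93, and Dusp1 were lower. None of these 6 stayed past the fold with normexp and loess, where Egr1 had 0.46, Egr2 0.34, Atf3 0.33, Fos -0.14, Nr4a1 -0.47 and Dusp1 -0.50.

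The largest ratio upward came from dim probes. Pcdh20, a protocadherin, had 4.42 and 4.25 and was at least 6.06-fold higher, because its control side was not well above background on either array. Its GALP signal was 230 and 146, and in the less weight loss pool neither side was well above background. Of 8 described Wfdc genes, which encode whey acidic protein type protease inhibitors, 3 were higher. Wfdc12 had 3.09 and 2.31, Wfdc3 had 2.46 and 1.81, and Wfdc15b was at least 2.79-fold higher. The family median was -0.01. The control side of Wfdc12 and of Wfdc3 was well above background on only 1 of the 2 arrays. The same held for Serpina9, which had 1.78 over a control signal of 12.2 on one array and 1.37 over 63.1 on the other. Its neighbour Serpina4-ps1 had 1.70 and 1.12, where 16 Serpina genes had a median of 0.08. The Wfdc and Serpina families were picked after their values were seen, and their called members lie among the dimmer probes.

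Apart from the digestive genes, the lowest liver gene was Cyp26a1, the enzyme that clears retinoic acid, with -1.69 and -1.98. Its signal was 123 and 90.6 in the GALP pool and 398 and 357 in the control pool, and it was the only one called of 17 retinoid genes. The steroid dehydrogenase genes Hsd3b4 and Hsd3b5, which lie within 119.8 kb on chromosome 3, had -1.77 and -1.80, and -1.81 and -1.70. Both were far lower with less weight loss, with means of -4.50 and -4.49. Hsd3b1, the form of the adrenal and gonads, had a mean of -1.10, while Hsd3b2 had -0.17 and -0.03. Of the 7 described Hsd3b genes 3 were lower. Star, which carries cholesterol into mitochondria of steroid-making cells, had -1.07 and -0.99, with its GALP side well above background on 1 array. Hsd3b1 and Star were 2 of 4 described adrenal markers, whose summed signal was 231 and 144 in the GALP pool and 300.3 and 272 in the control pool, and the part of adrenal RNA in these 2 values was not tested.

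Male-biased liver genes were more often lower than higher. Of 17 described, 5 were lower, 1 was higher and 11 were below 0 on both arrays, with a median of -0.22. Over all 11600 genes 1.1% were lower and 3322 were below 0 on both arrays. Moxd1, a monooxygenase, had -1.21 and -1.21, and Elovl3, an elongase of long fatty acids, had -0.77 and -1.01. Mup1, a major urinary protein, had -0.86 and -0.77, and Susd4 had -0.63 and -0.63. All 8 described Mup genes had a mean below 0, from -0.82 to -0.41, and 2 were called. Cyp4a12a, with -0.28 and -0.04, and Cyp2d9, with -0.11 and -0.04, were not called. Female-biased genes had 2 of 18 higher (Acot3 and Sult1e1), 14 above 0 on both arrays and a median of 0.26. Above 0 on both arrays were 3137 of all 11600 genes. Cyp2a5 had 0.63 and 0.53 and Cyp17a1 0.70 and 0.55. In the less weight loss pool the medians were -0.60 and 0.31.

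Genes of sterol synthesis leaned lower. Of 20 described, 4 were called lower, 0 higher, and 18 were below 0 on both arrays, where 3322 of all 11600 genes were. The median was -0.39. Mvd, which makes isopentenyl diphosphate, had -0.91 and -1.04. Cyp51, the lanosterol demethylase, had -0.88 and -0.69, and Sqle, the squalene epoxidase, had -0.68 and -0.81. Hmgcs1, an early enzyme of the pathway, had -0.82 and -0.63, with a signal of 17353 and 15188 against 30532 and 23527. Ebp, a sterol isomerase, differed in sign between the arrays, with 0.26 and -0.18. In the less weight loss pool the median was -0.27 and Mvd had -1.02. Fdps, the farnesyl diphosphate synthase, had -0.29 and -0.44 at its brighter probe and -1.80 and -1.81 at a dimmer one. The brighter probe, which represents the gene here, spans 141 bases of mm9.
Fdps, chr3:88898812-88898952, minus strand: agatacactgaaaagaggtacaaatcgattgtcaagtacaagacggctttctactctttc
The windows before Hmgcs1 and Mvd are printed with CACCCCAC, a core of the sterol regulatory element, and CCAAT, the box bound by NF-Y, in capitals on either strand (GRCm38.p6, plus strand for Hmgcs1 and minus strand for Mvd).
Hmgcs1, chr13:119690101-119690350: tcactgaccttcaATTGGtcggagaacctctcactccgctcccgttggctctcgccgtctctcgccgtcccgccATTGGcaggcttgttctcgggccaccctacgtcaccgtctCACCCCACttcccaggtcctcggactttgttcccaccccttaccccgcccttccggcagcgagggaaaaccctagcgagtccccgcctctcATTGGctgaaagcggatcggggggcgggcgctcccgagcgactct
Mvd, chr8:122443423-122443672: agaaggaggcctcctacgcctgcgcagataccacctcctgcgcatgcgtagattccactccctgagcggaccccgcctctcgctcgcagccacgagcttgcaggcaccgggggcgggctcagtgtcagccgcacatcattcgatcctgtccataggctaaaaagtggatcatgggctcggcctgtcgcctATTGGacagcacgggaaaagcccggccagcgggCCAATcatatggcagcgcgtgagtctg
CCAAT stood 3 times before Hmgcs1 and 2 times before Mvd, and CACCCCAC once before Hmgcs1. CCAAT occurred in 14 of 15 described sterol synthesis genes with a window, beside 42.7% of the genes described and 37.4% of all windows. CACCCCAC occurred in 2 of 15, beside 3.81% of the genes described and 2.87% of all windows.

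**Figure D4:**
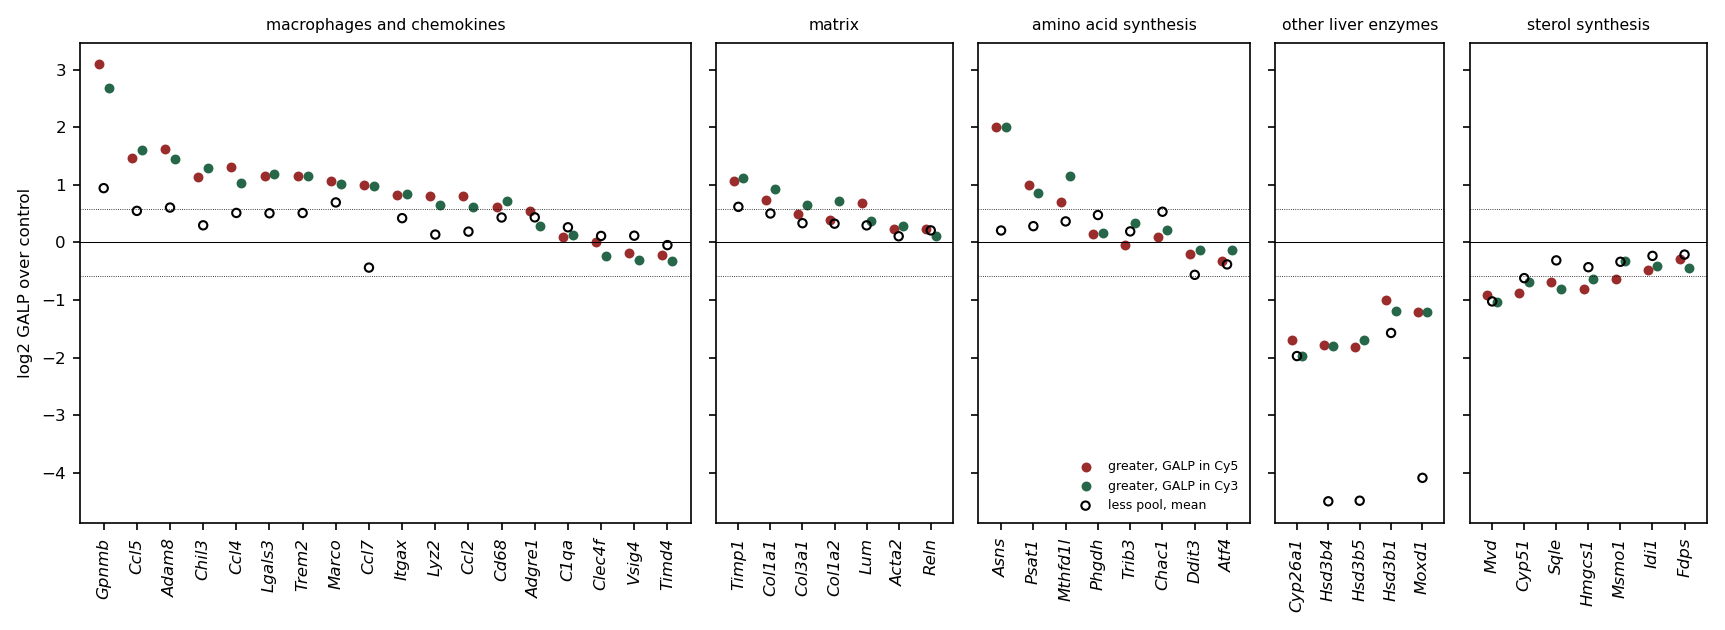
Log2 ratio of GALP over control of selected genes of 5 groups, with red and green points for the 2 dye orientations of the greater weight loss pool and open circles for the mean of the less weight loss pool. Dotted lines mark 1.5-fold; Gpnmb and Asns stand highest in their panels, Clec4f, Vsig4 and Timd4 lie near 0, and Hsd3b4, Hsd3b5 and Moxd1 lie lower in the less weight loss pool than in the greater, although the GALP side of Moxd1 was not well above background there.

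Genes of fatty acid and triglyceride synthesis were lower to a smaller extent. Of 23 described, 3 were called lower and 16 were below 0 on both arrays, with a median of -0.22. Gpam, the first acyltransferase of glycerolipid synthesis, had -0.70 and -0.61. Pnpla5, a lipase, was at least 2.93-fold lower. Fasn, the fatty acid synthase, had -0.63 and -0.52 and so passed the fold on only one array. Acly had -0.28 and -0.63. Scd2 had 0.33 and 0.32, and Dgat2, which completes triglycerides, had 0.28 and 0.18. With less weight loss the median was -0.36 and Fasn had -1.05. Other lower liver genes were Slc30a10, a manganese transporter, with -1.13 and -0.76, Lgr5, a receptor of R-spondins in pericentral hepatocytes, with -0.69 and -0.83, and Krt19, a keratin of bile ducts, with -0.82 and -0.82. Of 8 described bile duct markers 1 was lower (Krt19) and 1 higher (Krt23), and the median was -0.15. Lgr5 was the only one called of 16 pericentral markers, where Glul had -0.22 and -0.29 and Cyp1a2 0.19 and 0.14. Among adipose tissue markers Cfd, with -0.81 and -0.96, and Cidea, with -0.76 and -0.59, were lower and the lipase Lpl, with 0.77 and 0.60, was higher, whereas Adipoq, which fat cells make, had 0.41 and 0.35. The summed signal of the 8 adipose markers was 66854 and 51282 in the GALP pool and 72502 and 52510 in the control pool.

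Many groups of liver function held no called gene. Oxidative phosphorylation had 0 of 29 called, a median of -0.03 and a range from -0.13 to 0.08. Fatty acid uptake and oxidation had 0 of 24 called and a median of -0.03. Glucose metabolism had 0 of 26, insulin signalling 0 of 16, cytosolic heat shock genes 0 of 18 and cell cycle genes 0 of 17 called, with medians of -0.05, 0.01, 0.15 and 0.22. These counts stand beside 2.23% of all genes called, which would be under 1 gene in lists of this size, so that a count of 0 separates no list from the rest. The narrow range of the oxidative phosphorylation genes is shown beside the wide spread of the pancreas list in the plot of gene lists.

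**Figure D5:**
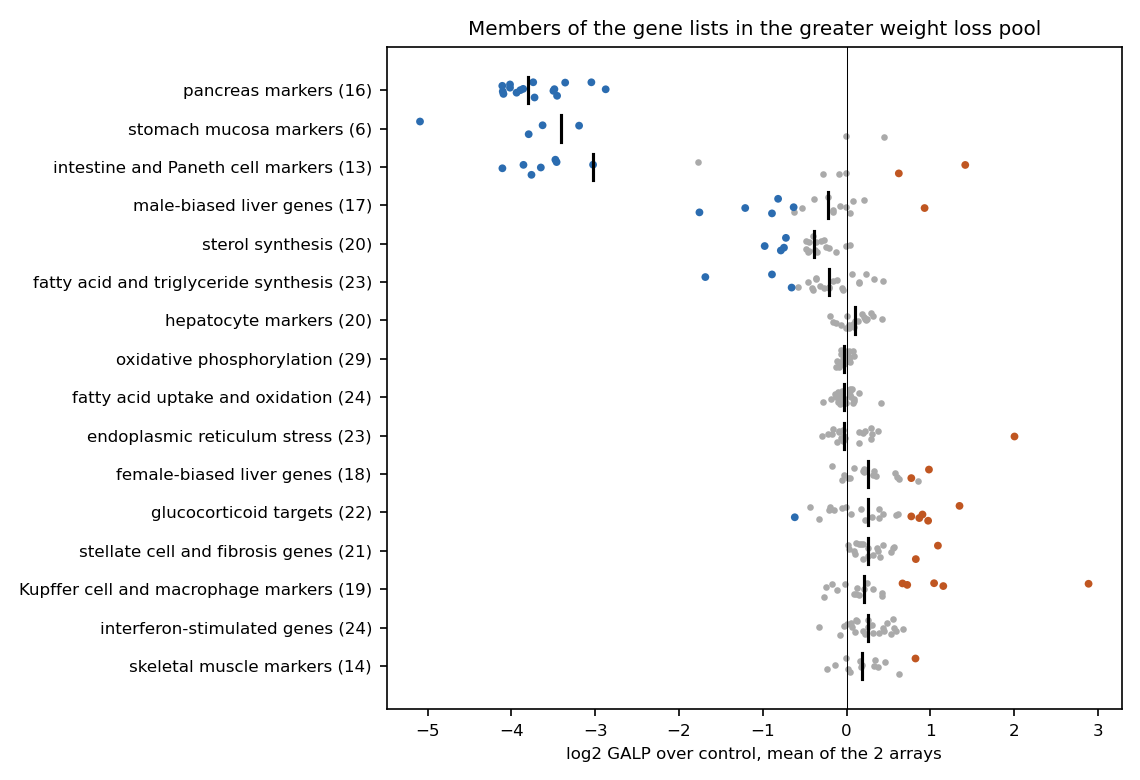
Mean log2 ratio of GALP over control of the 2 arrays (horizontal axis) for each described member of 16 gene lists, with the number of members in parentheses. Orange points were called higher and blue points lower on both arrays, grey points were not called, and the black bar is the list median, which is -3.80 for pancreas markers, -0.39 for sterol synthesis and 0.26 for stellate cell and fibrosis genes.

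For the called genes as a whole, the less weight loss pool gave the following values, per the methods against the same control extract. Of the 131 higher genes, 76 were above 0 on both of its arrays, 22 passed 1.5-fold higher and 6 passed 1.5-fold lower. Of the 128 lower genes, 33 passed 1.5-fold lower and 21 higher, 14 of the latter from the pancreas list. Over all genes described in the greater weight loss pool, 104 were higher and 131 lower with less weight loss. Per the methods both comparisons share the control extract, and in that case a deviation of that extract from other saline-treated mice enters both.

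With normexp, which adds an offset of 50 to every signal, and loess, 27 of the 131 higher and 42 of the 128 lower genes remained past the fold on both arrays. This alternative changes the background correction and the dye normalization together, and the part of each was not tested. Those that remained include Gpnmb with a mean of 1.29, Asns with 1.17, Ccl5 with 1.14, Marco with 0.98, Mt2 with 0.96, Trem2 with 0.89, Hsd3b4 with -1.36, Hmgcs1 with -0.87 and Cela3b with -3.95. Those that no longer passed include Cyp26a1 with -0.63, Mvd with -0.57, Cyp51 with -0.47, Moxd1 with -0.29, Psat1 with 0.19, Ccl4 with 0.33, Col1a1 with 0.49, Sult1e1 with 0.24 and Wfdc3 with 0.49. The lymphocyte genes named above also no longer passed, with 0.28 for Gzmb, 0.20 for Nkg7, -0.13 for Ms4a1 and -0.40 for Jchain. Nor did Gpam with -0.67, Cfd with -0.25, Cidea with -0.67 and Lpl with 0.61. Of the sterol synthesis calls only Hmgcs1 remained, since Sqle with -0.68 did not pass on both arrays. Both PPARα calls were lost, Acot3 with 0.51 and Acot1 with 0.44, as were Hsd3b1 with -0.22 and Star with -0.13. The same held for Elovl3 with -0.46, Susd4 with -0.30, Pnpla5 with -0.25, Slc30a10 with -0.59, Lgr5 with -0.18 and Krt19 with -0.17. It also held for Map3k6 with 0.18, Slc43a1 with 0.31, Enho with 0.50, Mthfd1l with 0.61 and Cd68 with 0.52. Among genes given as a limit, Ins2 with -0.51, Defa1 with -0.48, Defa20 with -0.38, Agr2 with -0.40 and Wfdc15b with 0.26 no longer passed. Pcdh20 with 0.65, Gkn2 with -0.83 and Pdia2 with -0.83 remained, at far smaller folds than their limits.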

How the data were processed

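Each side was 1 pool, hybridised in both dye orientations on an Agilent whole mouse genome slide (43379 spots per array). Per the file headers, the authors extracted the scans with Feature Extraction 12.0.3.1 (11.0.1.1 in the submitters' processing notes), whose background subtraction and LOWESS dye normalization gave the processed intensity. The deposited ratio of each spot is log10 of Cy5 over Cy3. The deposited p-value of a ratio compares the extracts of 1 array and was used only in an alternative. The deposited series table holds log10 GALP over control (column medians -0.0396 and -0.0134). It served as an alternative and its scale, centring and direction match the scanner files.

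Ratios were converted to log2 with GALP as the numerator. Outlier-marked spots (232 and 319) and control spots were left out, spots of a probe were averaged, and the brightest described probe represented a gene. The number of arrays limits the precision. Limits on folds used processed signals and the lowest signal well above background. Probe positions are on mm9, and 29416 probes (71.4%) matched a RefSeq accession. Promoter windows are from RefSeq on GRCm38.p6. Incomplete windows and those of a held-out chromosome were left out of the shares, so that all windows means the 32851 counted.

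The text names the 20 highest and 20 lowest called genes measured on both sides, the 8 largest limits each way, called and defining members of the gene lists, and genes the study names. Genes named beyond these were chosen after their values were seen, and a few genes are not reported here. The members and lists were chosen with earlier results of these data known. Alternatives were normexp with loess (limma 3.58.1, R 4.3.3), centring, the series table, outlier marks kept, other filters, folds and units, and each dye orientation alone. Python 3.11.15, numpy 2.4.6, pandas 2.3.3 and matplotlib 3.10.9 were used.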

Additional observations from a re-analysis of the deposited data

Results flagged for a closer look

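The ratios of these genes passed 1.5-fold on both arrays of each GALP pool, in opposite directions with greater and with less weight loss. Each pool is 1 sample, per the methods against the same control extract, so the difference was not tested. The pancreas list had a median of -3.80 in the greater weight loss pool, against 0.82 in the other, where 14 of its 16 members were called higher. The means with greater and with less weight loss were -4.11 and 0.71 for Cpb1, -4.10 and 0.91 for Pnliprp1, -4.10 and 0.96 for Cela3b, and -4.02 and 0.78 for Prss3. They were -3.89 and 0.84 for Pnlip, -3.74 and 0.84 for Cel, and -3.72 and 0.83 for Cela1. They were -3.50 and 0.80 for Clps, -3.46 and 0.71 for Cela2a, -3.36 and 0.73 for Cpa1, and -3.05 and 0.79 for Prss2. Ins2, which encodes insulin, had -4.02 and 2.18.

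Other genes of the pancreas, stomach and mucus-secreting cells had the same order. Sycn had -3.81 with greater and 1.12 with less weight loss, Pdia2 -4.10 and 0.74, Agr2 -4.02 and 0.82, Tff2 -3.79 and 0.68, and Gkn3 -3.19 and 0.70. With greater weight loss the GALP side of Ins2, Pdia2 and Agr2 was not well above background, and they were at least 5.81-fold, 11.6-fold and 4.17-fold lower. With normexp and loess Ins2 with -0.51 and Agr2 with -0.40 no longer passed the fold there, and Pdia2 had -0.83.

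The opposite order was seen in Tff3, with 1.42 and -1.63. In 3 more genes with that order the GALP side with less weight loss was not well above background, so that only a limit holds there. For Serpina4-ps1 the ratio of 1.41 stands beside a limit of at least 1.56-fold lower in the other pool, and for the skeletal muscle myosin Myh4 0.81 stands beside at least 2.47-fold. The kidney endocytic receptor Lrp2 had 0.76 and was at least 1.07-fold lower, a limit short of 1.5-fold. Of 4 described kidney markers Lrp2 was the only one called with greater weight loss. In that pool, with normexp and loess, Serpina4-ps1 with 0.45, Myh4 with 0.29 and Lrp2 with 0.11 no longer passed the fold. Tff3 with 0.79 still did.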

How the results depend on the processing

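The counts of 187 higher and 199 lower probes changed with how dim probes were treated, with the fold rule and with the use of a single array. With normexp and loess 31 were higher and 56 lower, with no filter on signal 493 and 371, and with both channels above background 95 were higher. At 2-fold on both arrays 40 were higher and 86 lower, with the mean of the arrays past 1.5-fold 366 and 349, and with a software p-value under 0.01 on both arrays 109 were higher. With the fold limits of the methods 395 were lower, and with 1 probe per gene 128. A single array in place of both gave 511 to 1131 higher and 453 to 1256 lower, the highest counts being higher with GALP in Cy5 alone and lower with GALP in Cy3 alone. Centring (203 higher and 181 lower), the series table and kept outlier marks stayed within 1.5 times, as did the counts without digestive organ genes and those of the less weight loss pool (127 and 177), which were chosen after seeing the data. Of single gene ratios under the alternatives 1752 moved by less than the spread of the arrays and 193 by more, and of list medians 356 and 76. A gene's ratio on a single array lies within that spread of its mean by construction. The series table repeats the scanner ratios, and the filter on both channels keeps the same probe value. These alternatives could not move a gene, so the gene counts do not measure robustness. No called gene under the naming rule changed sign. The offset of 50 adds to every signal and by construction lowers folds of dim probes. Signal over background limits these arrays: 1911 of the described probes had a channel not well above background on at least 1 array. No paired analysis was possible because each group has 1 pool and no test was run.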

Other observations

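Clock genes that peak with Per and Rev-erb leaned above 0, with 0 of 11 described members called, 9 above 0 on both arrays and a median of 0.28. Of all 11600 genes, 3137 were above 0 on both arrays. Usp2 had 0.44 with GALP in Cy5 and 0.90 with GALP in Cy3, and Tef, an activator that binds D-boxes, had 0.42 and 0.52. The 5 described genes of the Bmal1 phase had a median of -0.11 and 0 were called. Periportal hepatocyte markers had 0 of 12 called, 8 above 0 on both arrays and a median of 0.21, and pericentral markers a median of -0.04. Of 24 hepatokine and hormone receptor genes, Klb, the co-receptor of FGF21, had -0.41 and -0.42, and Adipor2, a receptor of adiponectin, had -0.43 and -0.31. Lyve1, a hyaluronan receptor of sinusoidal and lymphatic endothelium, had 0.86 and 0.56, and 0 of 19 endothelial markers were called, with a median of 0.07. Cidec, which enlarges lipid droplets, had 0.57 and 0.92, and of the 15 described lipid droplet genes 0 were higher and 1 was lower, Cidea.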
